A study of Mus musculus with 16 samples.

Results

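Acute phase proteins are plasma proteins, made mostly by hepatocytes, whose blood levels change during inflammation, infection or injury. The 10 transcripts described here were chosen by name, by matching the gene identifiers of the deposited table to the mouse genome build GRCm38. They are Saa1, Saa2 and Saa4 (serum amyloid A), Orm1 and Orm2 (alpha-1-acid glycoprotein, also called orosomucoid), Hp (haptoglobin), Hpx (hemopexin), Apcs (serum amyloid P), Crp (C-reactive protein) and Lcn2 (lipocalin 2), 10 of 55487 rows. With a mean level of at least 1 TPM (a share of all transcripts in the library, corrected for gene length), 9 of the 10 were among the 11839 genes tested, and Lcn2 was not.

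Livers came from 16 male C57BL6/J mice, 4 per group and 1 library per mouse. All had been made obese by high-fat feeding for 8 weeks, from an age of 10 weeks in the sample records, whereas the study's methods give a younger start and have the mice on the 2 study diets, themselves high in fat, before dosing began. The groups were vehicle on a high-fat, standard protein diet (vehicle SP), vehicle on a high-fat, high protein diet (vehicle HP), and G108 on each diet (G108 SP and G108 HP). G108 is a long-acting agonist of the glucagon receptor, given here at 2.5 nmol/kg under the skin each day for 22 days. The records put the cull on day 25 after a 4 h fast, and the methods put it earlier. There was no lean group and no inflammatory challenge, so the levels below are those of unchallenged obese mice. Each mouse is a separate animal, and in whole liver fewer cells of a type and less RNA per cell cannot be told apart.

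In the classical acute phase response, interleukin 6 and interleukin 1 from activated macrophages reach hepatocytes, where STAT3, C/EBP factors and NF-kB raise the transcription of acute phase genes. Glucocorticoids add to this response, and the genes for orosomucoid are among those known to respond to them. Haptoglobin captures free hemoglobin and hemopexin captures free heme, serum amyloid A travels on high density lipoprotein, and lipocalin 2 withholds iron from bacteria by binding their siderophores. In mice, serum amyloid P rather than C-reactive protein is the pentraxin that rises most in inflammation.

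TPM are shares of a library, and one group of transcripts can move all others. Transcripts of the mitochondrial genome held 13.8% to 37.3% of a library. Those of the major urinary proteins (Mup) held 42.6% to 49.7% in vehicle SP, 35.7% to 44.9% in vehicle HP, 18.3% to 23.0% in G108 SP and 18.2% to 29.6% in G108 HP. With TPM as deposited, the median gene was 0.60 higher on the log2 scale in G108-treated mice than in vehicle mice on SP, and 0.09 higher on HP. To compare each transcript with the typical gene, TPM were divided by a median-of-ratios size factor per library, which left the median gene at 0.00 (scaled TPM). Unless TPM as deposited are named, the values are scaled TPM, and log2 fold changes are on log2(scaled TPM + 1). Each library held 27804600 to 45033700 recovered reads. The 10 hepatocyte markers were all present, and the 10 neutrophil markers summed to at most 3.96 scaled TPM, with 7 of them under a mean of 0.1 TPM. Vehicle SP mouse 4 stood apart, with r of 0.952 to 0.967 to the others of its group, against 0.971 to 0.993 for all other pairs within groups. It and G108 HP mouse 3 had the lowest sums of hepatocyte markers (23729 and 25885 scaled TPM, against 30533 to 37080 in the other 14) and the highest sums of blood markers (2965 and 2281, against 656 to 1299).

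The acute phase transcripts spanned a wide range of levels in these livers. Hpx, at a mean of 1576 TPM, and Hp, at 1502, ranked 77 and 79 among all rows of the table. Orm1 followed at 356 TPM, then Saa4 at 66.9, Crp at 52.1 and Apcs at 32.3. Saa1 at 9.52 TPM, Orm2 at 7.96, Saa2 at 3.60 and Lcn2 at 0.923 were low. Hp, Hpx and Orm1 together made up 92.7% to 96.4% of the summed TPM of the 10 genes. The least abundant gene, Lcn2, was still covered by 31 to 193 recovered reads per library, and Saa2 by 104 to 1205.

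The spread between mice was widest in genes at a low level. Between the lowest and the highest of the 16 mice, scaled TPM differed by 15.6 times for Saa1, 14.8 times for Saa2 and 6.48 times for Lcn2. The same range was 4.05 times for Orm2, 3.66 times for Crp, 3.12 times for Orm1 and 2.71 times for Saa4. It was below 2 for Hpx (1.93), Apcs (1.77) and Hp (1.63).

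Several of these genes are neighbours. Saa4 (chr7:46727998-46732603, minus strand), Saa1 (chr7:46740497-46742980, minus strand) and Saa2 (chr7:46751790-46754313, plus strand) lie in a row on GRCm38, with 7893 and 8809 bases between them. Orm1 (chr4:63344560-63348163) and Orm2 (chr4:63362449-63365878), both on the plus strand, flank Orm3. Apcs (chr1:172893961-172895041) and Crp (chr1:172698055-172833031) are 60929 bases apart. The annotated span of Crp also holds a processed pseudogene, Gm38051, at 0.319 TPM. Hp (chr8:109575128-109579172), Hpx (chr7:105591613-105600137) and Lcn2 (chr2:32384633-32388252), all on the minus strand, have no other member nearby.

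Near copies limit how reads can be assigned within the families. Of the 31-base sequences in the protein-coding transcripts of Orm1, 27.5% also occur in Orm2 and 4.70% in Orm3, and 26.8% of those of Saa1 also occur in Saa2. Values of Orm2, Orm3 and Saa2, the lower members, are therefore less certain. Hp, Hpx, Apcs, Crp, Saa4 and Lcn2 shared no such sequence with another of these genes.

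Promoters were read for the 8 genes with an entry in the RefSeq table of GRCm38.p6, as the 250 bases before the transcription start. Orm1 and Hp had no entry. The 3 promoters below belong to the called genes Orm2 and Saa4 and to the most variable gene, Saa1. Capitals mark matches to TTNNGNAA, a loose form of the C/EBP motif, on either strand.
Orm2, chr4:63362199-63362448, plus strand: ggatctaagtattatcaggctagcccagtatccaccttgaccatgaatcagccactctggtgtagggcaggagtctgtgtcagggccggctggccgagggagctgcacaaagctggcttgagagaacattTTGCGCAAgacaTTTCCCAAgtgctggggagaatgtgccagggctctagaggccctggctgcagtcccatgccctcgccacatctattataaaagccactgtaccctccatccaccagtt
Saa4, chr7:46732604-46732853, minus strand: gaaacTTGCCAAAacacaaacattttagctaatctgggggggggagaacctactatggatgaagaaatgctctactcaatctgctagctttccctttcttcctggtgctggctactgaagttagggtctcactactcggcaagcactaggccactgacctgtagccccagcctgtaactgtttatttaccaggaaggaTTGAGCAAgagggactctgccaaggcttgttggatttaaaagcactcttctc
Saa1, chr7:46742981-46743230, minus strand: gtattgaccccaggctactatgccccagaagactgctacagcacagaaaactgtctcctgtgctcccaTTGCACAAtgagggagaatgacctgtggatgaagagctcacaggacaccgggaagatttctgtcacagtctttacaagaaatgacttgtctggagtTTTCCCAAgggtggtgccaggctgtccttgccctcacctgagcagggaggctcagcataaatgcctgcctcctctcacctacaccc
In Orm2 the matches lie close together, at positions -120 and -108 counted from the start. In Saa1 they lie at -182 and -86.

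The Saa1 and Saa2 promoters, 94.8% identical over an alignment of 251 columns, differ at the nearer site. Saa1 held 2 matches and Saa2 held 1, at -183 (chr7:46751640-46751667, plus strand). The sites are shown with 10 bases on each side.
Saa1, farther site: tgtgctcccaTTGCACAAtgagggagaa
Saa2, farther site: tgtgctcccaTTGCACAAtgagggaaaa
Saa1, nearer site: tgtctggagtTTTCCCAAgggtggtgcc

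Of the 8 promoters, 7 held the C/EBP letters, against 36.8% of all 32851 promoters of the same length. Apcs was the exception. A STAT form, TTCNNNGAA, occurred in 1 of 8 (Apcs, at -244), against 7.02% of all promoters. An NF-kB form, GGGNNNNNCC, occurred in 5 of 8 (Saa1, Saa2, Saa4, Crp and Lcn2), against 45.8% of all promoters. Matches to different motifs did not overlap. A match describes the letters of the window only.

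**Figure D1:**
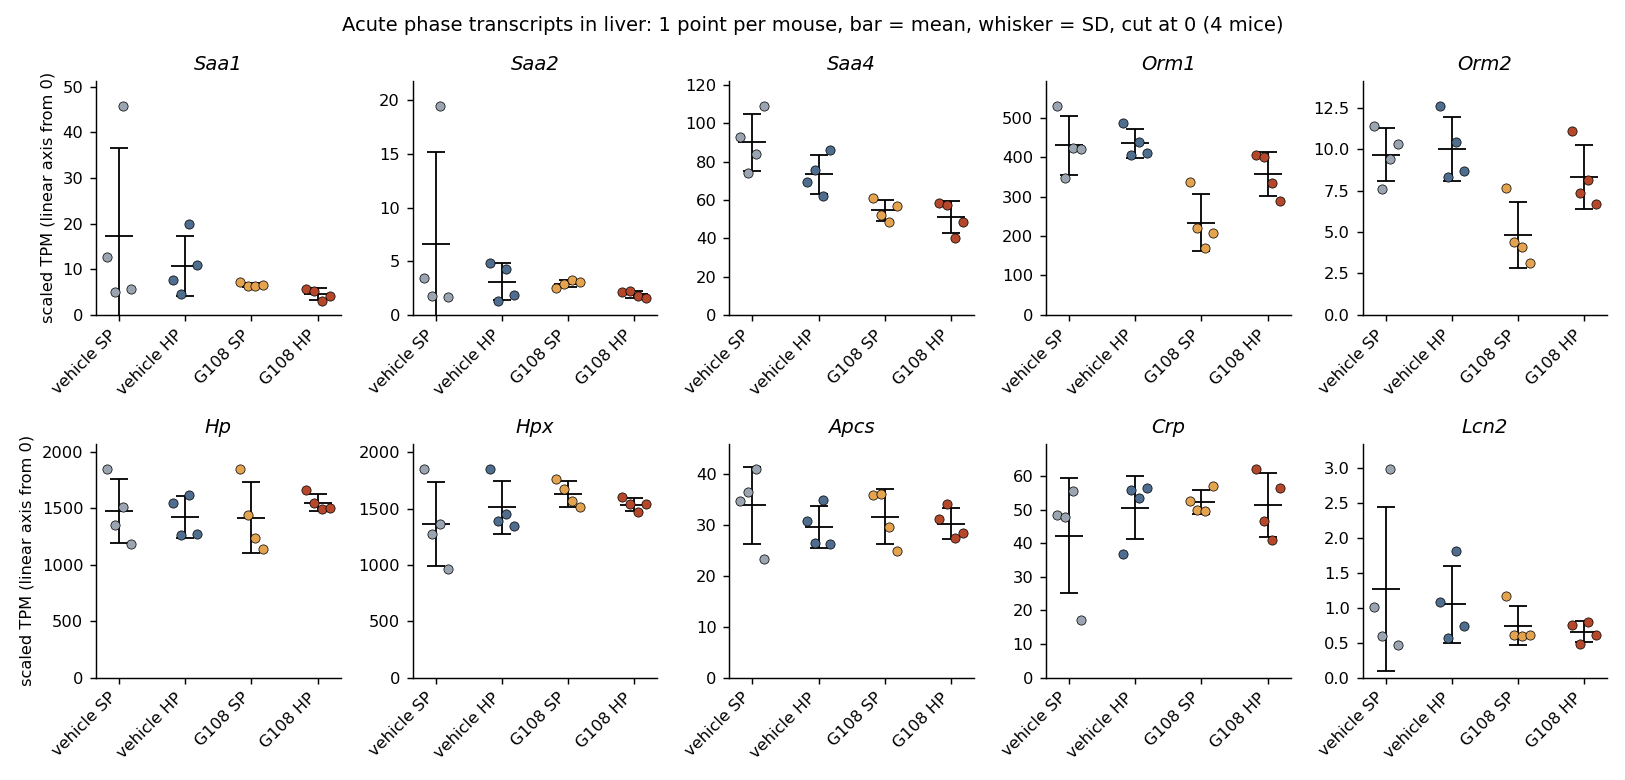
Scaled TPM (linear axes from 0) of the 10 acute phase transcripts in each of 16 mice by group, with the group mean and SD (whiskers stop at 0). Orm1 and Saa4 of all 4 G108 SP mice sit below all 4 vehicle SP mice, which does not hold with TPM as deposited, and 1 vehicle SP mouse stands at 45.8 for Saa1 and 19.5 for Saa2.

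On SP, the comparison that asks what G108 changed without extra protein, the orosomucoid genes Orm1 and Orm2 and the constitutive serum amyloid gene Saa4 were lower in G108-treated mice as scaled TPM, which TPM as deposited did not show. None of the 9 genes tested was higher. Called lower were 3 of 9, against 1.34% of all genes tested called lower and 1.29% called higher (limma, Benjamini-Hochberg adjusted p under 0.05). The median log2 fold change of the 9 was -0.38, and that of all genes tested was 0.00. With TPM as deposited, another set of 4 was called, all higher (Hp, Hpx, Apcs and Crp), against 77.0% of all genes called higher. That is 4 of 9 genes, a smaller share than this background.

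Orm1 encodes the main orosomucoid, a lipocalin-fold protein that carries small lipophilic molecules. In vehicle SP mice 1 to 4 it stood at 530, 348, 425 and 420 scaled TPM, a mean of 430 ± 75.0 (SD, n = 4). In G108 SP mice 1 to 4 it stood at 338, 221, 170 and 207, a mean of 234 ± 72.7 (SD, n = 4). All G108 SP mice were below all vehicle SP mice, as for 4.45% of all genes tested. The log2 fold change was -0.91 (SE 0.19, adjusted p = 0.0190, limma), to 0.534 of the vehicle level.

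Orm2, the minor orosomucoid gene, had a log2 fold change near that of Orm1, at a far lower level. Its values are not fully separate from those of Orm1, which holds 27.5% of its 31-base sequences. Vehicle SP mice 1 to 4 had 11.4, 7.60, 9.39 and 10.3 scaled TPM. G108 SP mice 1 to 4 had 7.67, 4.41, 4.10 and 3.12. The G108 SP mice were lower apart from mouse 1, which just exceeded vehicle SP mouse 2, so the groups overlapped. The log2 fold change was -0.92 (SE 0.21, adjusted p = 0.0275, limma), to 0.529 of the vehicle value of scaled TPM + 1. At this low level the added 1 matters. With 0.1 added in its place, the log2 fold change was -1.05 for Orm2 (adjusted p = 0.0269, limma) and still -0.91 for Orm1.

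Saa4 encodes the serum amyloid A of normal plasma, which responds little to inflammation. Vehicle SP mice 1 to 4 had 93.1, 74.1, 84.2 and 109 scaled TPM, a mean of 90.1 ± 14.8 (SD, n = 4). G108 SP mice 1 to 4 had 61.1, 52.0, 48.6 and 56.7, a mean of 54.6 ± 5.43 (SD, n = 4). The groups did not overlap. The log2 fold change was -0.70 (SE 0.15, adjusted p = 0.0192, limma), to 0.614 of the vehicle level.

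These calls depend on the scaling and on how the spread was estimated. With TPM as deposited the log2 fold changes of Orm1, Orm2 and Saa4 were -0.15, -0.26 and 0.05, and none was called. In the fit of only vehicle SP and G108 SP, their adjusted p were 0.134, 0.124 and 0.0782. None of the 3 was called without G108 SP mouse 2, 3 or 4, with adjusted p from 0.0519 (Saa4 without mouse 4) to 0.104 (Orm2 without mouse 4). Without vehicle SP mouse 4, Orm2 (adjusted p = 0.0736) and Saa4 (adjusted p = 0.0518) were not called, and Orm2 was not called without vehicle SP mouse 1 (adjusted p = 0.0627) or 3 (adjusted p = 0.0667). When a mouse of vehicle SP or G108 SP was left out, the 3 log2 fold changes stayed below 0. They ran from -1.10 to -0.77 for Orm1, -1.13 to -0.77 for Orm2 and -0.79 to -0.61 for Saa4. Leaving out an HP mouse cannot move these values. When TPM were rescaled over genes that are neither mitochondrial nor Mup, the 3 were called, at -0.86, -0.89 and -0.66.

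The other tested genes did not pass on SP. Haptoglobin was at 1474 ± 286 scaled TPM in vehicle SP and 1416 ± 316 in G108 SP (SD, n = 4), a log2 fold change of -0.06 (95% interval -0.42 to 0.29). Hemopexin was at 1364 ± 369 and 1630 ± 111, a log2 fold change of 0.29 (95% interval -0.06 to 0.65). Serum amyloid P had a log2 fold change of -0.08 (95% interval -0.44 to 0.27). C-reactive protein had a log2 fold change of 0.43 (95% interval -0.18 to 1.03), in which vehicle SP mouse 4, at 17.0 scaled TPM, was far below the other 15 mice (36.9 to 62.2). Without that mouse it was 0.05 (adjusted p = 0.936, limma). The intervals for Hp, Hpx and Apcs exclude a change as large as that fitted for Orm1, and that for Crp excludes such a fall.

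TPM as deposited turned this picture around for the abundant heme and hemoglobin binders. Hpx (1.06, adjusted p = 0.00090), Hp (0.70, adjusted p = 0.0033), Crp (1.17, adjusted p = 0.0084) and Apcs (0.66, adjusted p = 0.0128, all limma) were then higher, near the 0.60 shift of the median gene or above it. Together the 10 genes held 0.194% to 0.317% of all TPM in vehicle SP mice and 0.442% to 0.485% in G108 SP mice. The shares on HP were 0.282% to 0.345% with vehicle and 0.300% to 0.428% with G108. As a share of the library the sum of the 10 genes was thus higher in each G108 SP mouse than in every vehicle mouse. Hp, Hpx and Orm1 made up 92.7% to 96.4% of this sum, and Orm1 itself had a log2 fold change of -0.15 on SP as deposited. On this scale 77.0% of all genes tested were called higher.

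**Figure D2:**
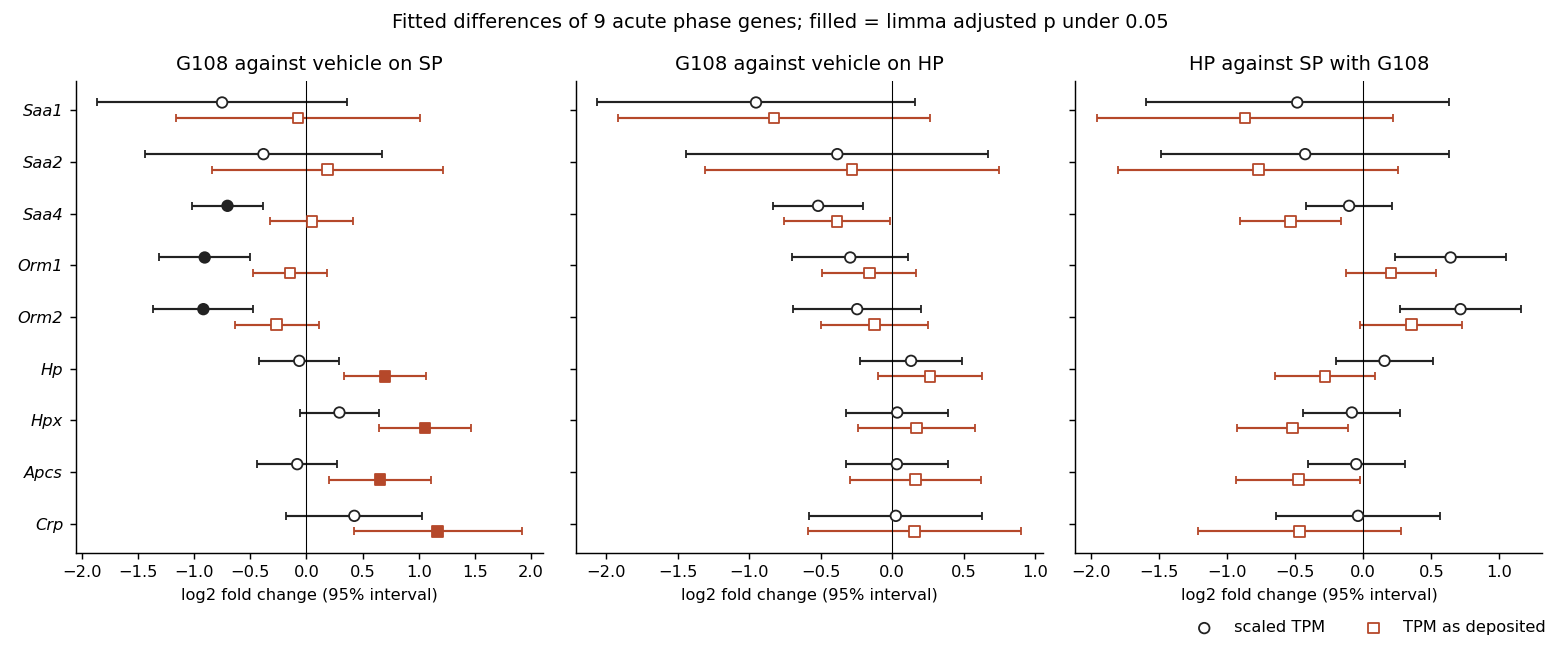
Fitted log2 fold changes with 95% intervals (horizontal axis) of the 9 genes tested, for G108 against vehicle on SP, G108 against vehicle on HP and HP against SP with G108, as scaled TPM (circles) and as TPM deposited (squares). Filled symbols passed the test: Orm1, Orm2 and Saa4 on SP as scaled TPM (-0.91, -0.92, -0.70), Hp, Hpx, Apcs and Crp on SP as deposited, and none in the other panels.

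Ratios between transcripts of the same mouse do not depend on scaling. These ratios were picked with the values known and are given without a test. Orm1 was 25.7% to 35.6% of Hp in vehicle SP mice and 27.2% to 32.3% in vehicle HP mice. It was 13.8% to 18.3% of Hp in G108 SP mice and 19.3% to 25.9% in G108 HP mice. G108-treated mice were below vehicle mice on both diets without overlap, and G108 SP mice were below G108 HP mice without overlap.

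Against Hpx, Orm1 was likewise lower in G108-treated mice than in vehicle mice on each diet without overlap, with 27.2% to 43.6% in vehicle SP, 26.3% to 30.5% in vehicle HP, 10.9% to 19.2% in G108 SP and 18.8% to 26.1% in G108 HP. Here G108 SP mouse 1, at 19.2%, overlapped with G108 HP. Saa4 was 5.02% to 11.3% of Hpx in vehicle SP, 3.75% to 6.41% in vehicle HP, 3.10% to 3.74% in G108 SP and 2.74% to 3.73% in G108 HP. Orm2 stayed near 2% of Orm1 in all groups, at means of 2.25% and 2.29% in vehicle mice on SP and HP, and of 2.04% and 2.33% in G108-treated mice on SP and HP. Of the 31-base sequences of Orm2, 27.5% also occur in Orm1, and how many Orm2 reads came from Orm1 was not tested.

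**Figure D3:**
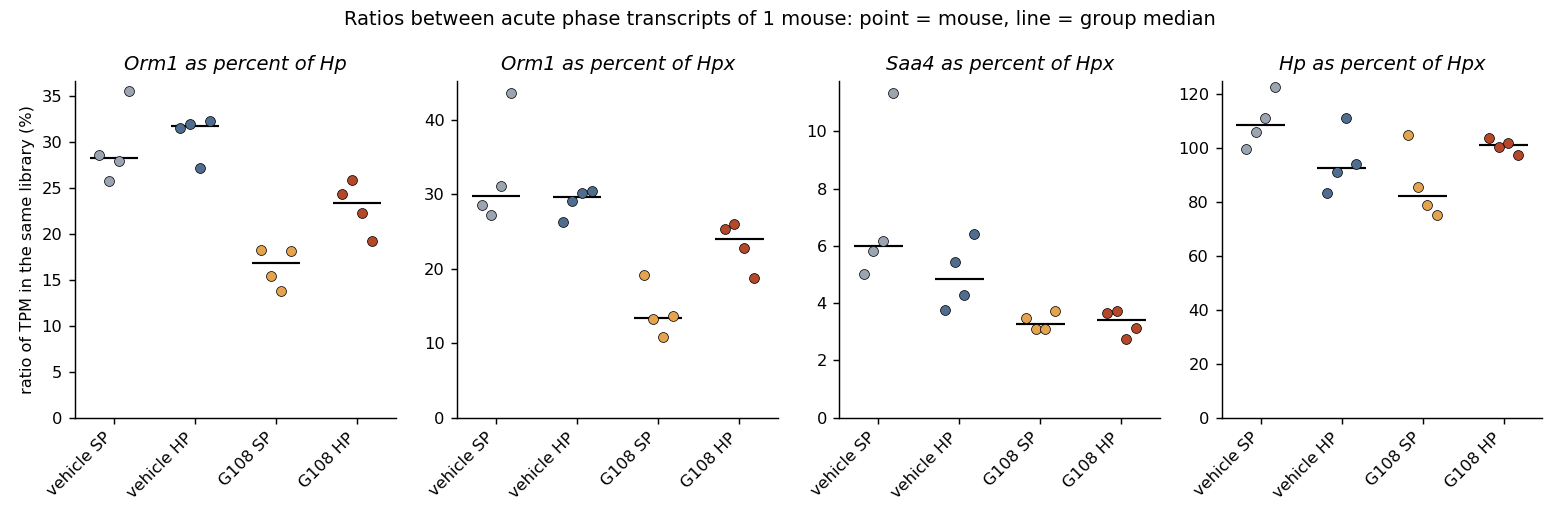
Ratios of TPM within the same library, in percent, for Orm1 to Hp, Orm1 to Hpx, Saa4 to Hpx and Hp to Hpx, with 1 point per mouse and a line at the group median. Orm1 relative to Hp is lowest in the 4 G108 SP mice (13.8% to 18.3%) and next lowest in the 4 G108 HP mice (19.3% to 25.9%), and Hp relative to Hpx overlaps between G108 and vehicle on both diets.

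On HP, the comparison of G108 with vehicle under protein supplementation, no acute phase gene was called. In this comparison 0.591% of all genes tested were called lower and 0.617% higher (limma, 143 genes). At an unadjusted p under 0.05 there was 1 gene of 9, Saa4, the same share as the 11.2% of all genes tested (1328), and a fit on recovered reads with voom also called 0. Saa4 was at 69.5, 75.5, 62.1 and 86.3 scaled TPM in vehicle HP mice 1 to 4. It was at 58.4, 57.4, 40.2 and 48.4 in G108 HP mice 1 to 4. The groups did not overlap, as for 3.92% of all genes tested in the same direction, and the log2 fold change was -0.52 (SE 0.15, unadjusted p = 0.0034, adjusted p = 0.130, limma). Without G108 HP mouse 3 it was -0.41 (adjusted p = 0.391, limma), and 19 of all genes were called.

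As scaled TPM, the orosomucoid genes Orm1 and Orm2 differed less on HP than on SP. With TPM as deposited, the log2 fold change of Orm1 was -0.15 on SP and -0.16 on HP. That of Orm2 was -0.26 on SP and -0.12 on HP. Orm1 was at 487, 405, 439 and 411 scaled TPM in vehicle HP mice 1 to 4 and at 405, 401, 334 and 290 in G108 HP mice. The groups met at 405, and the log2 fold change was -0.29 (95% interval -0.70 to 0.11). Orm2 was at 8.35 to 12.6 in vehicle HP mice and 6.72 to 11.1 in G108 HP mice, a log2 fold change of -0.25 (95% interval -0.69 to 0.20). Hp, Hpx, Apcs and Crp had log2 fold changes of 0.13, 0.04, 0.03 and 0.03, with adjusted p of 0.847 or more.

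Whether the G108 difference itself depended on diet was tested as an interaction. No gene of all 11839 was called (limma, 0% of all genes tested), with 832 at an unadjusted p under 0.05. Among the acute phase genes the interaction was 0.61 for Orm1 (SE 0.27, unadjusted p = 0.0385) and 0.67 for Orm2 (SE 0.30, unadjusted p = 0.0382), both with adjusted p = 0.580. For Saa4 it was 0.18 (95% interval -0.26 to 0.63). With TPM as deposited the interaction was -0.01 for Orm1, 0.14 for Orm2 and -0.43 for Saa4, and that of the median gene was -0.49. A different G108 response on the 2 diets was therefore not shown for any of these genes.

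The direct diet comparison among G108-treated mice gave the matching values, and it shares the G108 groups with the comparisons above. Orm1 was higher on HP than on SP by 0.64 (SE 0.19, unadjusted p = 0.0044) and Orm2 by 0.71 (SE 0.21, unadjusted p = 0.0039), both with adjusted p = 0.790. No gene was called (limma, 0% of all genes tested), with 620 of them at an unadjusted p under 0.05. As deposited, these values were 0.21 and 0.35. Orm1 ranged from 170 to 338 scaled TPM in G108 SP and from 290 to 405 in G108 HP, so that only G108 SP mouse 1 reached into the range of G108 HP.

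Among vehicle mice, HP against SP gave no call either (limma, 0% of all genes tested, 451 genes at an unadjusted p under 0.05, none of them an acute phase gene). Orm1 averaged 430 ± 75.0 in vehicle SP and 435 ± 37.5 in vehicle HP (SD, n = 4), a log2 fold change of 0.03 (95% interval -0.38 to 0.44). The value farthest from 0 among the 9 was that of Saa2, at -0.43 (95% interval -1.48 to 0.63).

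Saa1 and Saa2 encode the inducible serum amyloid A proteins, which can rise steeply within hours of an inflammatory stimulus. Vehicle SP mice 1 to 4 had 12.8, 5.08, 45.8 and 5.68 scaled TPM of Saa1. Vehicle HP mice 1 to 4 had 7.72, 4.46, 19.8 and 10.99. Vehicle SP mouse 3 was the highest of all 16 mice and vehicle HP mouse 3 the next.

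With G108, Saa1 lay in a narrow band. G108 SP mice 1 to 4 had 7.12, 6.23, 6.26 and 6.64 scaled TPM. G108 HP mice 1 to 4 had 5.76, 5.26, 2.93 and 4.10. The coefficient of variation was 111% in vehicle SP, 61.6% in vehicle HP, 6.34% in G108 SP and 28.1% in G108 HP, a difference in spread that was not tested.

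Saa2 was also highest in vehicle SP mouse 3, at 19.5 scaled TPM, and the other vehicle SP mice had 1.64 to 3.47. In vehicle HP the highest was mouse 1, at 4.87, rather than mouse 3, at 4.23, and Saa2 was 17.2% to 63.2% of Saa1 in this group. Saa2 was at 1.31 to 4.87 in vehicle HP, 2.47 to 3.24 in G108 SP and 1.52 to 2.25 in G108 HP. Both genes were lower in every G108 HP mouse than in every G108 SP mouse, which held in the same direction for 2.15% of all genes tested. It also held with TPM as deposited, where 20.5% of all genes did so. The fitted differences were -0.49 (SE 0.52, adjusted p = 0.864) for Saa1 and -0.43 (SE 0.50, adjusted p = 0.864, limma) for Saa2, in a fit whose spread is pooled over all 4 groups.

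The SP comparison of Saa1 and Saa2 rests on vehicle SP mouse 3. On SP the log2 fold change of Saa1 was -0.75 (SE 0.52, adjusted p = 0.449) and that of Saa2 was -0.38 (SE 0.50, adjusted p = 0.684). Without vehicle SP mouse 3 they were -0.12 and 0.29, and the vehicle SP mean of Saa1 fell from 17.3 to 7.84. On HP the log2 fold change of Saa1 was -0.95 (SE 0.52, adjusted p = 0.554) and that of Saa2 was -0.38 (adjusted p = 0.848, limma). Leaving out an SP mouse cannot move the HP value of Saa1, so its -0.95 without vehicle SP mouse 3 is fixed by the design. The pooled spread did change, giving an unadjusted p of 0.0157 in place of 0.0880 and an adjusted p of 0.270 (limma). Over the 16 fits that left out a mouse, the HP value ran from -1.26 to -0.62, moved only by HP mice. The value of -0.62 was that without vehicle HP mouse 3.

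Lcn2, the siderophore-binding lipocalin, was highest in the same pair of mice as Saa1, at the lowest level of the 10. Vehicle SP mouse 3 had 2.99 scaled TPM from 193 reads, and vehicle HP mouse 3 had 1.82. The other 14 mice lay between 0.462 and 1.16. Without the filter on low values, its log2 fold change was -0.27 on SP (SE 0.27, adjusted p = 0.723) and -0.27 on HP (SE 0.27, adjusted p = 0.879, limma). Vehicle SP mouse 3 did not stand apart in the abundant genes, with 1516 scaled TPM of Hp within the 1179 to 1850 of its group.

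**Figure D4:**
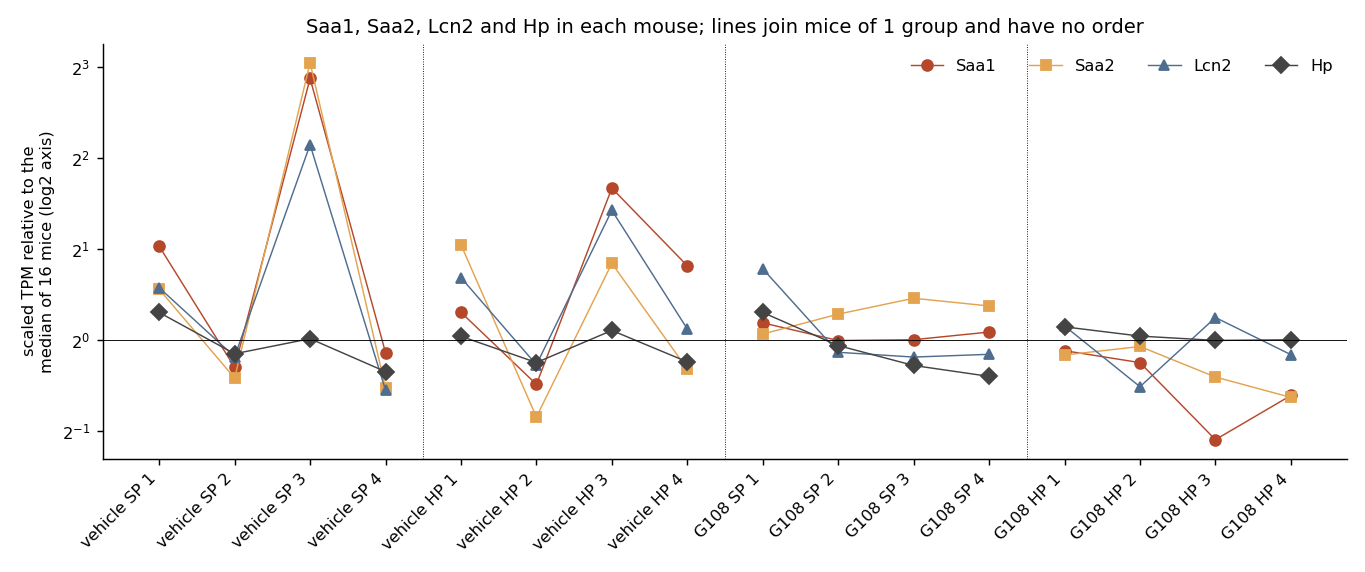
Scaled TPM of Saa1, Saa2, Lcn2 and Hp in each mouse relative to the median of the 16 mice (log2 axis), grouped by treatment and diet. Vehicle SP mouse 3 (45.8 for Saa1, 19.5 for Saa2, 2.99 for Lcn2) and vehicle HP mouse 3 stand above the rest for Saa1 and Lcn2, while Hp spans only 1.63 times over all mice.

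Across the 16 mice, after subtracting each group's mean, 3 of 45 relations between the 10 genes passed adjustment, 1 of them in both r and rho. Hp with Hpx had r = 0.778 and rho = 0.871 (permutation p = 0.00051 and 0.00030, adjusted over 45 to 0.0229 and 0.0135), and r = 0.740 without the 2 mice farthest from the median. Orm1 with Orm2 had r = 0.817 and rho = 0.803 (adjusted permutation p = 0.0570 and 0.0303), and r = 0.768 without the 2 farthest mice. Orm1 with Hp had r = 0.765 and rho = 0.774 (adjusted permutation p = 0.0614 and 0.0303), and r = 0.645 without the 2 farthest mice. Both relations of Orm1 passed in rho alone. Orm1 with Hpx had r = 0.491 and rho = 0.629 (adjusted permutation p = 0.165 and 0.0906). The other 42 relations did not pass in either measure after adjustment. Within a library all values share its depth and its scaling factor, and 27.5% of the 31-base sequences of Orm2 also occur in Orm1.

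Over all 16 libraries, the gene with the pattern most like Orm1 was Orm2 (Pearson r of scaled log2 values 0.940), followed by Mup-ps8 (0.923) and Mup2 (0.910), of the urinary lipocalin family. Saa1 and Saa2 were nearest to each other (0.865), and Lcn2 was nearest to Saa1 (0.877) and Saa2 (0.868). Saa1 was next nearest to Fgl1 (0.819), which encodes a fibrinogen-like protein secreted by hepatocytes. Saa4 was nearest to Ces3a (0.924), a liver carboxylesterase, Hp to Ndufs3 (0.901), a subunit of respiratory complex I, and Crp to Gm4951 (0.961). Hpx was nearest to Atp6v0c (0.896) and Apcs to Capns1 (0.808). These r over 16 libraries describe likeness of pattern and include the group differences.

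The third orosomucoid gene, Orm3, lies between Orm1 and Orm2 and also fell on SP. Vehicle SP mice 1 to 4 had 5.53, 2.64, 5.21 and 18.6 scaled TPM, and G108 SP mice 1 to 4 had 1.82, 0.618, 0.605 and 0.368. The groups did not overlap, although the 18.6 of vehicle SP mouse 4 is far above the other 3. The log2 fold change was -2.04 (SE 0.38, adjusted p = 0.0082, limma), and -1.59 (adjusted p = 0.0014) with TPM as deposited. On HP it was -1.11 (SE 0.38, adjusted p = 0.216, limma). Vehicle HP mice had 2.63 to 4.12 scaled TPM and G108 HP mice 0.716 to 1.52, from 15 to 34 reads. These groups did not overlap either, as for 3.92% of all genes tested in the same direction. In the fit of only vehicle HP and G108 HP the SE was 0.15, and Orm3 was called lower (adjusted p = 0.031, limma), with 61 of all genes called. In G108 SP mice Orm3 rested on 10 to 36 reads, and in the fit of only vehicle SP and G108 SP its adjusted p was 0.102.

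Orm3 was the only call among 21 of 24 other positive acute phase proteins that were tested on SP (0 higher, 1 lower, median 0.03). On HP none of the 21 was called, and their median was -0.26, with that of all genes at -0.01. The most abundant of them, Hamp (1607 TPM), the hormone that limits iron release, had a log2 fold change of -0.48 (adjusted p = 0.524) on SP. Fgg (605 TPM), a chain of fibrinogen, had 0.10 (adjusted p = 0.846, limma). With TPM as deposited 11 of the 21 were called higher on SP and 1 lower, against 77.0% of all genes called higher, so that their share was below this background.

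Of the negative acute phase proteins, which fall in inflammation, 9 of 9 were tested and none was called on either diet. Their median was 0.02 on SP. Alb (albumin) had a log2 fold change of 0.04 (adjusted p = 0.916) and Apoa1 (apolipoprotein A-I) one of -0.34 (adjusted p = 0.341, limma) on SP. With TPM as deposited 7 of 9 were called higher on SP, close to the 77.0% of all genes.

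The signals that drive the acute phase response were at low levels in whole liver. Of 10 inducing cytokines, 2 were tested (Cxcl1 at 3.35 TPM and Il1a at 1.17) and neither was called on either diet. Il6 averaged 0.0086 TPM and Tnf 0.125, and Il22 was listed at 0 in every library. Of 15 receptors and signal transducers 14 were tested, and of 14 transcription factors 12, with no call on either diet. The medians of these lists were 0.02 and -0.01 on SP, and -0.11 and -0.12 on HP. Before adjustment, 4 of the 14 receptors and transducers had a limma p below 0.05 in the HP comparison, and 1 of the 12 transcription factors. The share among all genes tested was 11.2%. In the SP comparison the counts were 1 of 14 and 1 of 12, and the share among all genes tested was 17.6%. Lifr (21.5 TPM), the receptor for leukemia inhibitory factor, had a log2 fold change of 0.12 (adjusted p = 0.757) on SP, and Tnfrsf1a (19.4 TPM), a receptor for tumor necrosis factor, one of 0.31 (adjusted p = 0.296, limma). Stat3 had a log2 fold change of 0.26 (adjusted p = 0.289), Cebpa one of 0.24 (adjusted p = 0.580) and Cebpb one of -0.14 (adjusted p = 0.682, limma) on SP.

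Receptors that clear or bind these proteins had 5 of 10 tested and no call on either diet. Asgr1, a subunit of the hepatocyte receptor for galactose-ended glycoproteins, had a log2 fold change of 0.07 (adjusted p = 0.785, limma) on SP. Asgr2, the other subunit, had one of -0.04 (adjusted p = 0.833, limma). In the glucocorticoid response list 7 of 8 were tested, and only Sgk1, a kinase induced by glucocorticoids and other signals, was called. With G108 it was higher on SP by 0.85 (SE 0.14, adjusted p = 0.0042, limma). On HP it was higher by 1.07 (SE 0.14, adjusted p = 0.010, limma). Tsc22d3 and Fkbp5, also induced by glucocorticoids, had log2 fold changes of -0.07 and -0.24 on SP, with adjusted p of 0.818 and 0.553. On HP they were 0.47 (unadjusted p = 0.0135, adjusted p = 0.250) and -0.32 (adjusted p = 0.652, limma). Per1, another such gene, was 0.41 (adjusted p = 0.294) on SP and 0.77 (unadjusted p = 0.0014, adjusted p = 0.083, limma) on HP. At an unadjusted p under 0.05 (limma) there were 2 of the 7 genes on SP, against 17.6% of all genes tested, with a median of 0.29 over the list. On HP there were 4 of 7, against 11.2% of all genes tested, with a median of 0.47.

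Markers of other cell types were compared in the same libraries. Of 10 Kupffer cell markers 9 were tested and none was called, and their sum was 79.5 to 102 scaled TPM in vehicle SP, 40.1 to 125 in G108 SP, 82.8 to 98.5 in vehicle HP and 52.4 to 121 in G108 HP. The blood markers summed to 833 to 2965 in vehicle SP and 656 to 916 in G108 SP, and to 994 to 1299 in vehicle HP and 986 to 2281 in G108 HP. The highest were vehicle SP mouse 4 and G108 HP mouse 3. Of 5 blood markers tested none was called, with 1 of 5 log2 fold changes above 0 on SP and 5 of 5 on HP. At an unadjusted p under 0.05 (limma) there were 3 of these 5 on SP, against 17.6% of all genes tested, and 0 of 5 on HP, against 11.2%. Of the adipocyte list 1 of 6 was tested, Car3 at 496 TPM, which hepatocytes also express, with log2 fold changes of -0.86 on SP (adjusted p = 0.0049, limma) and -0.71 on HP (adjusted p = 0.033, limma), both called lower. They were -0.10 and -0.57 with TPM as deposited, and neither was called. The defining adipocyte markers were near 0, with Adipoq at 0.033 TPM and Lep at 0 in every library. The part of any of these in the results above was not tested.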

How the data were processed

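Liver RNA from 16 mice was sequenced, 1 library per mouse. Per the sample records and the study's methods, the authors checked reads with FastQC 0.11.8, aligned them to GRCm38 with HISAT2 2.0.5, counted them with featureCounts and computed TPM. The deposited values are these TPM, in 1 table of 55487 rows. The authors tested read counts with DESeq2 1.36.0, and those counts were not used here. The sample records gave the group of each column. Symbols, coordinates and exon lengths came from GENCODE vM21 on GRCm38, and promoters from RefSeq. Depth was recovered because low TPM are whole multiples of 1 read, and 98.7% of 139252 such values came within 0.02 of a whole number of reads. Precision at low levels is limited by this depth. No library duplicated another.

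TPM were divided by median-of-ratios size factors over 17705 genes above 0 in every library, because the median gene of the deposited TPM differed between groups. The 11839 genes at a mean of 1 TPM or more were fitted on log2(scaled TPM + 1) with limma 3.58.1 in R 4.3.3, with 1 mean per group, an intensity trend and Benjamini-Hochberg adjustment over all genes tested. A gene was called where its adjusted p was below 0.05. The fit was tested on simulated data for G108 against vehicle on SP, with 200 of 11839 genes raised by a log2 of 1. It recovered 76.5% of them, and 3.165% of its 158 calls were wrong. Relations between members used deviations from group means and 100000 permutations.

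Alternatives were TPM as deposited, TPM rescaled without mitochondrial and Mup genes, a pseudocount of 0.1, no filter, a filter at a mean of 5 TPM, the mouse number as a replicate block, a fit of only the groups compared, voom on the recovered reads, and each library left out. The members, the gene lists and the settings were chosen with earlier results of these data known. Genes named besides the members are those called in a list (at most 4), otherwise the 2 most abundant, and the nearest genes by r. Stat3, Tsc22d3, Fkbp5, Per1, Il6, Tnf and Il22 were named outside this rule, as known parts of the response. Also outside it, Hamp and Fgg were named for their level, and Tat, Car3, Adipoq and Lep as markers. C3, Itih4, C4b, Serpina3n, Cfb, Serpina3m and Itih3 were chosen after their values were seen. Of 145 listed genes 144 were matched.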

Additional observations from a re-analysis of the deposited data

Results flagged for a closer look

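In each of 40 sets of 4 mice (10 genes in 4 groups), the gap between the most extreme mouse and its nearest neighbour was compared with the whole range by Dixon's criterion. Chance alone marks about 1 in 20 sets, and 3 were marked. Saa2 stood at 19.5 scaled TPM in vehicle SP mouse 3, and the other vehicle SP mice had 1.64 to 3.47. Saa1 and Lcn2 were highest in the same mouse, without passing the criterion. Crp stood at 36.9 scaled TPM in vehicle HP mouse 1, and the other vehicle HP mice had 53.4 to 56.6. Lcn2 stood at 1.16 scaled TPM in G108 SP mouse 1, and the other G108 SP mice had 0.594 to 0.616, a level at which Lcn2 rests on 44 to 78 reads in this group.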

How the results depend on the processing

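The lower Orm1, Orm2 and Saa4 on SP depended on setting each library to its typical gene. With TPM as deposited, 9185 genes were called on SP, Saa4 turned to 0.049, and Hp (0.70) and Apcs (0.66) turned from just below 0 to called higher. The count of acute phase genes called on SP was 3 with the rescaling without mitochondrial and Mup genes, with a pseudocount of 0.1, with a mean TPM of at least 5 and with voom on recovered reads, and 2 without a filter (Orm2 lost, adjusted p = 0.0727). It was 0 when only the groups compared were fitted, with 99 genes called on SP and 61 on HP. A mean TPM of at least 5 left 204 genes on SP and 72 on HP, and no filter left 44 on HP, 1 for diet with vehicle and 1 for the interaction.

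The mouse numbers in the labels do not pair the samples, since deviations of same-numbered mice correlated from r = -0.57 to 0.53 and 4 of 16 libraries correlated best with their own number. With the mouse number as a replicate block, 207 genes were called on SP, 31 on HP and 1 for diet with vehicle, and the acute phase genes called on SP stayed 3. Leaving out 1 mouse at a time gave 0 to 3 acute phase genes and 151 to 453 genes called on SP, 19 to 208 genes on HP and 0 to 1 for diet with vehicle. Of 1066 log2 fold changes of members compared with the values reported, 1042 kept their side of the threshold without a called change of sign, 19 lost a call, 2 gained one and 3 reversed. This count says little about the calls, since only Orm1, Orm2 and Saa4 on SP had a call to lose. Over 24 alternatives, Orm1 was called on SP in 19, Orm2 in 15 and Saa4 in 18. These counts include the fits that left out an HP mouse, which cannot move the SP fold changes and all kept the 3 calls. Leaving out a mouse of vehicle SP or G108 SP ended the call in 3 fits for Orm1, 6 for Orm2 and 4 for Saa4. With 4 mice a group and low levels of Saa2, Orm2 and Lcn2, smaller changes could not be seen.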

Other observations

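Among genes used here only as hepatocyte markers, Tat, the tyrosine-degrading enzyme long known as a target of glucagon and glucocorticoids, was called higher with G108, by 1.77 on SP (SE 0.31, adjusted p = 0.0065, limma). On HP it was higher by 1.39 (SE 0.31, adjusted p = 0.043, limma).

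C3 and Itih4 had log2 fold changes of opposite sign on the 2 diets, in values that did not pass adjustment and were singled out after they were seen. They were the 2 of 21 other positive acute phase genes with an interaction at an unadjusted p under 0.05 (limma), against 7.03% of all genes tested (832). Opposite signs were not particular to them. Cfb (0.03 on SP, -0.19 on HP), Serpina3m (0.28 and -0.68) and Itih3 (0.08 and -0.02) had them too. C4b (-0.13 and -0.19) and Serpina3n (-0.18 and -0.81) had the same sign on both. With TPM as deposited, Itih4 was above 0 on HP as well, at 0.10. C3, the central complement protein, had a log2 fold change of 0.74 (adjusted p = 0.145) on SP, one of -0.26 (adjusted p = 0.788) on HP and an interaction of -1.002 (unadjusted p = 0.012, limma). Itih4, a hyaluronan-associated plasma protein, had a log2 fold change of 0.65 (adjusted p = 0.104) on SP, one of -0.03 (adjusted p = 0.974) on HP and an interaction of -0.68 (unadjusted p = 0.028, limma). As scaled TPM, Orm1 and Orm2 had interactions of the other sign, 0.61 and 0.67. With TPM as deposited they were -0.01 and 0.14, and those of C3 and Itih4 were -1.63 and -1.30.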
